A study of Rattus norvegicus with 11 samples.

Results

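The postsynaptic density scaffold genes are 9 genes whose proteins build the protein mesh beneath the excitatory synapse: Dlg2, Dlg4, Dlgap1, Dlgap2, Shank1, Shank2, Shank3, Homer1 and Iqsec2. They were listed by name, with earlier results of these data known. Every one of the 9 was found by its exact symbol among the 42172 genes of the count tables. All 9 also passed the low-count filter that left 17294 genes for testing. The data are 11 poly(A) RNA sequencing libraries of primary hippocampal neurons from CD (Sprague Dawley) rats, taken at day 7 in vitro. Cultures expressed wild-type linker histone H1.4 from an introduced construct (WT H1.4, n = 4), a mutant of it whose C-terminal tail is frameshifted (H1.4 CFT, n = 4), or GFP as a control (n = 3, numbered 2 to 4). The labels name no change to the cells' own genes in any group, and the promoter, vector and sequence of the constructs are not given in the sources used here. The labels call the libraries biological replicates but do not say whether each came from its own animals, so p-values measure the spread between these libraries.

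Linker histone H1 binds the nucleosome where DNA enters and leaves it, and its lysine-rich C-terminal tail holds the linker DNA. Frameshift variants that replace this tail of H1.4 are known from a human neurodevelopmental disorder, which is the setting of the study's title. In the postsynaptic density, the membrane-associated guanylate kinases PSD-93 (Dlg2) and PSD-95 (Dlg4) hold glutamate receptors and adhesion proteins through their PDZ domains. The SAPAP proteins (Dlgap1, Dlgap2) join them to the Shank proteins, and Shanks join to Homer, which binds metabotropic glutamate receptors and inositol trisphosphate receptors. Iqsec2 is an exchange factor for Arf GTPases that binds PSD-95 and takes part in receptor trafficking.

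Promoter sequence is shown for 4 of the genes so that the one with the widest fall against GFP (Dlg2), one that fell against both by a smaller one (Homer1), one that fell against WT H1.4 only (Shank3) and one that passed in neither (Iqsec2) can be read side by side. Each is the 250 bases before an annotated start in RefSeq (GRCr8, plus strand), printed 5′ to 3′ with CG dinucleotides in capitals. The windows are chr1:154539421-154539670 for Dlg2, chr2:26278762-26279011 for Homer1, chr7:122448073-122448322 for Shank3 and chrX:24733996-24734245 for Iqsec2. This build is not the one the counts were made on, so the sequences illustrate the genes and no count was placed on them.
Dlg2: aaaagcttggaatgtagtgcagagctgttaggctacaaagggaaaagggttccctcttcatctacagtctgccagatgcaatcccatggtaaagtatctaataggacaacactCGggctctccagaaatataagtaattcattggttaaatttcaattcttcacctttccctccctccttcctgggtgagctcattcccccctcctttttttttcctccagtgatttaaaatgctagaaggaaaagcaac
Homer1: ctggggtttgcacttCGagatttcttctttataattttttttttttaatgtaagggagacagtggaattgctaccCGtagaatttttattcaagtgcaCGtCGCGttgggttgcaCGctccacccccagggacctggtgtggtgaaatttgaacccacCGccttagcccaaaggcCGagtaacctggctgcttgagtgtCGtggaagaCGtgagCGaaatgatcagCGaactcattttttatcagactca
Shank3: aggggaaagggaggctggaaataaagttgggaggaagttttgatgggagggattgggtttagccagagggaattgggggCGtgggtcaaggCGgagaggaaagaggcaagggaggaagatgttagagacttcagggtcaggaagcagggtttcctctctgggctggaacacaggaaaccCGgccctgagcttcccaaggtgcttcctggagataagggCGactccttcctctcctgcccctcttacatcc
Iqsec2: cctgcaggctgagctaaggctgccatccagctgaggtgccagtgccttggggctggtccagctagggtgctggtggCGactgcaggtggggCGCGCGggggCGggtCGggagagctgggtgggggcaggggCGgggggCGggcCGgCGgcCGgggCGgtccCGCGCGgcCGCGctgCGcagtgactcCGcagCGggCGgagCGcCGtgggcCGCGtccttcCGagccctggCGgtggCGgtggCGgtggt

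The printed windows differ widely in CG content. The Dlg2 window held 1 CG at a GC content of 42.4% and the Shank3 window 4 at 56.0%. The Homer1 window held 12 at 46.4% and the printed Iqsec2 window 29 at 78.4%. Iqsec2 also has a window at another annotated start, not printed here, which held only 3 CG at 55.2% GC. Over all 33469 windows of this length the median was 5 CG and 51.2% GC, and 92.2% held at least 1 CG. The RefSeq table had 8 windows for 6 of the 9 genes. On either strand, CCAAT was present in 4 of the 8 (34.0% of all windows), TATAAA in 2 (12.9%) and GGGCGG, a motif that can overlap a CG-rich stretch, in 1 (30.5%). These matches are letters in a window, with nothing drawn from them about a factor.

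Reads assigned to genes ranged from 12070941 to 18846492 per library, and each scaffold gene had between 394 and 9372 counts in each library, which sets the counting error. Replicates differed by more than sampling noise, so none was a repeat deposit. The rat H1f4 row held only 0 to 8 counts in any library (5 to 8 in H1.4 CFT, 1 to 5 in WT H1.4, 0 to 2 in GFP), which checks no label, because the construct's sequence is not given. Pan-neuronal markers summed to 11144 to 11350 CPM in WT H1.4, 10473 to 11099 in GFP and 7649 to 9018 in H1.4 CFT. Of the 15, 12 fell in H1.4 CFT against each control and 0 rose, with medians of -0.51 (log2) against WT H1.4 and -0.39 against GFP. Of all genes in H1.4 CFT, 19.2% fell and 16.7% rose against WT H1.4, and 16.2% fell and 13.3% rose against GFP. Astrocyte markers summed to 1610 to 1731 CPM in WT H1.4, 2105 to 2195 in H1.4 CFT and 2043 to 2188 in GFP. In H1.4 CFT libraries 6 of 10 rose against WT H1.4 and 2 against GFP. In WT H1.4 5 of the 10 fell against GFP and 0 rose (0.509% and 0.434% of all genes). Oligodendrocyte lineage markers summed to 427 to 523 CPM with 0 of 8 passing against WT H1.4, microglial markers stayed between 8.05 and 13.8 CPM, with Cx3cr1 at 0 in WT H1.4, and vascular and fibroblast markers between 56.8 and 86.8. Single markers of these low lists moved within those sums: against WT H1.4, Tek, Col1a1, Col1a2 and Csf1r rose in H1.4 CFT by 1.71, 0.60, 0.99 and 1.41 (log2), and Dcn and P2ry12 fell by 1.26 and 0.59. Col1a1 and Col1a2 fell in WT H1.4 against GFP (-0.93 and -1.09) and did not pass in H1.4 CFT against GFP (-0.32 and -0.10). Tek and Csf1r also rose in H1.4 CFT against GFP (2.08 and 1.75), and Dcn and P2ry12 also fell (-1.40 and -0.50). In bulk RNA fewer neurons and less RNA per neuron cannot be told apart, and the part of these shifts in the scaffold results was not tested.

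Against WT H1.4, the H1.4 CFT libraries had 6 of the 9 scaffold genes fallen and 0 risen with TMM scaling, which assumes that most genes do not change, while 0 fell and 7 rose when libraries were scaled instead to the 15 pan-neuronal markers. That second scaling, added after seeing the data, moved the median of all genes from 0.018 to 0.45 (log2), and 70.8% of all genes rose with it and 2.83% fell. A change of scaling shifts all genes alike, so the distance of the median scaffold gene from the median of all genes, -0.20 (log2), is the same both ways by construction. Dlg2, Dlg4, Dlgap1, Shank1, Shank3 and Homer1 fell with TMM, and Dlgap2, Shank2 and Iqsec2 did not pass. Of all genes tested, 19.2% fell and 16.7% rose, and the median log2 fold change was -0.18 for the scaffold genes and 0.018 for all genes. The fold changes and tests come from edgeR's quasi-likelihood test with Benjamini-Hochberg adjustment over all genes tested, CPM is a gene's count relative to its library's TMM-scaled size, and a gene fell or rose only with an adjusted p under 0.05. At an unadjusted p under 0.05, 8 were lower and 0 higher, beside 45.1% of all genes in either direction. DESeq2 and limma-voom also gave 6 lower and 0 higher.

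**Figure D1:**
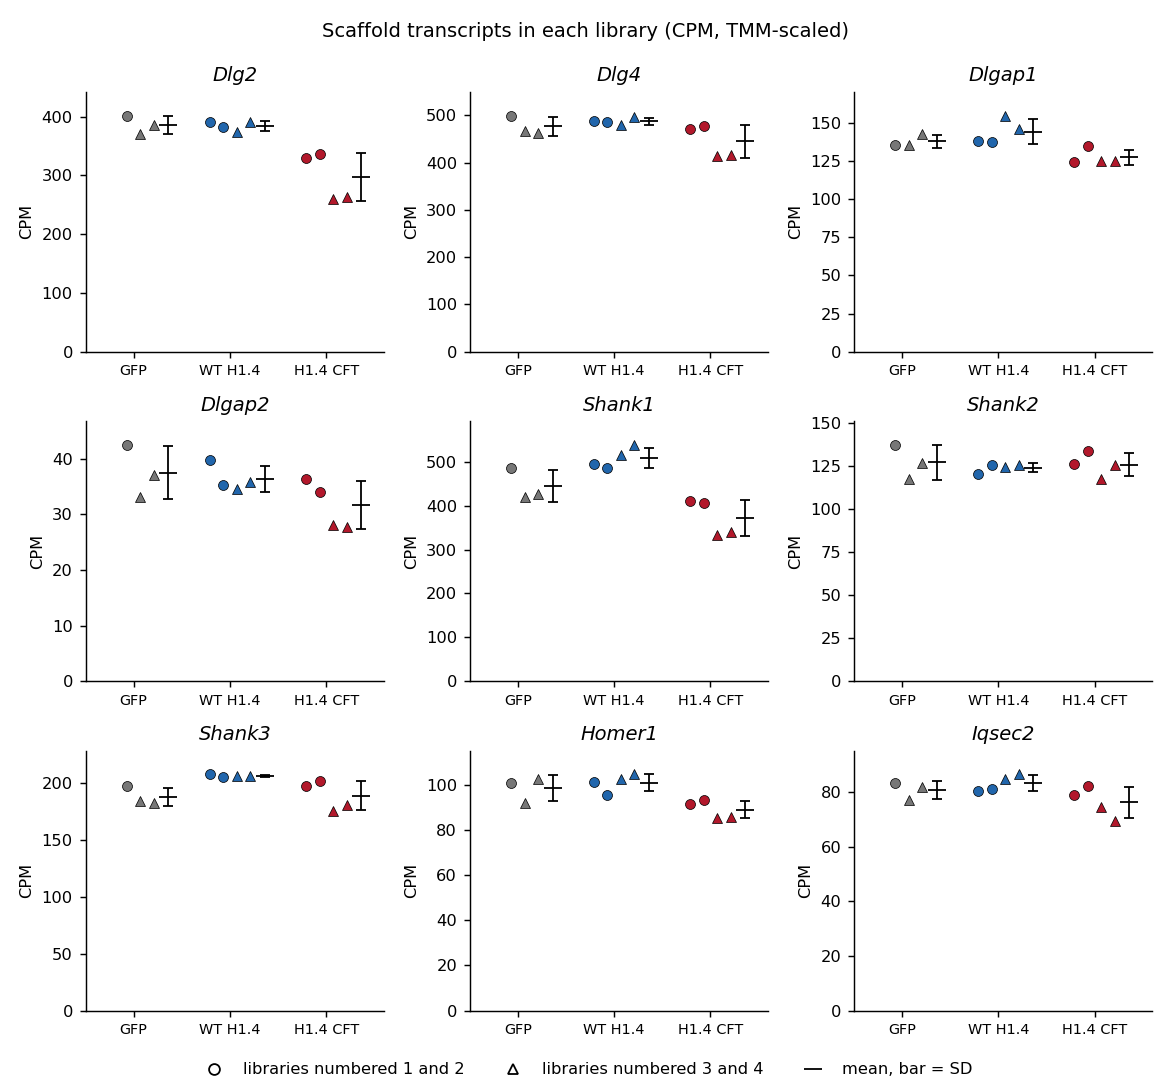
Level of each scaffold gene in every library, in CPM with TMM scaling (y axis from 0), by group; circles are libraries numbered 1 and 2, triangles those numbered 3 and 4, and the line and bar are the mean and SD. The H1.4 CFT triangles of Dlg2 and Shank1 sit lowest (260 and 264 CPM for Dlg2), and Shank2 shows no gap between groups; if libraries are scaled to the pan-neuronal markers, 0 of the 9 genes fall and 7 rise.

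Among the guanylate kinases, the estimated log2 fold change was lower for Dlg2 than for Dlg4 in both H1.4 CFT comparisons. The test of their ratio, given below, did not pass after adjustment (exact two-sided permutation p = 0.0286 each, adjusted 0.0536). That is the smallest p these group sizes allow, and after adjustment over 15 tests it stayed above 0.05 although the groups did not overlap. Dlg2 stood at 390, 383, 373 and 391 CPM in WT H1.4 libraries 1 to 4, at 330, 337, 260 and 264 CPM in H1.4 CFT libraries 1 to 4, and at 402, 371 and 385 CPM in GFP libraries 2 to 4. The 4 H1.4 CFT libraries lay below all 7 others, and those numbered 3 and 4 were the lowest. Its mean was 384 ± 8.18 CPM in WT H1.4 and 298 ± 41.1 CPM in H1.4 CFT (SD, n = 4 each), a log2 fold change of -0.37 (SE 0.076, edgeR adjusted p = 0.00224). Against GFP (386 ± 15.3 CPM, SD, n = 3) the log2 fold change was -0.37 (SE 0.082, edgeR adjusted p = 0.00408).

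Dlg4, the most studied of these scaffolds as PSD-95, had the smaller estimates. It stood at 488, 486, 479 and 496 CPM in WT H1.4, at 470, 478, 414 and 416 CPM in H1.4 CFT, and at 499, 466 and 463 CPM in GFP. H1.4 CFT libraries 1 and 2 lay just under the WT H1.4 range and within the GFP range, while libraries 3 and 4 were below every other library. Its log2 fold change was -0.13 against WT H1.4 (SE 0.048, edgeR adjusted p = 0.0360) and -0.099 against GFP (SE 0.052, edgeR adjusted p = 0.161), the second with a 95% interval from -0.21 to 0.0090. The call against WT H1.4 was lost without WT H1.4 library 1, 2 or 4 (edgeR adjusted p = 0.0625, 0.0623 and 0.0853), without H1.4 CFT library 3 or 4 (0.142 and 0.125) and with a stricter low-count filter (0.0651).

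Of the SAPAP genes, Dlgap1 fell against WT H1.4 and Dlgap2 varied more between libraries. Dlgap1 read 138, 137, 155 and 146 CPM in WT H1.4, 124, 135, 125 and 125 CPM in H1.4 CFT, and 135, 135 and 142 CPM in GFP. All 4 H1.4 CFT values were below all 7 others, although library 2 came within 1 CPM of the lowest GFP library. The log2 fold change was -0.18 against WT H1.4 (SE 0.046, edgeR adjusted p = 0.00472) and -0.11 against GFP (SE 0.050, edgeR adjusted p = 0.0916).

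Dlgap2, the least counted of the 9 genes, read 39.8, 35.3, 34.6 and 35.8 CPM in WT H1.4, 36.4, 34.1, 28.2 and 27.8 CPM in H1.4 CFT, and 42.5, 33.1 and 37.0 CPM in GFP. H1.4 CFT libraries 3 and 4 were below the range of the 7 control libraries, and libraries 1 and 2 were inside it. Fitted log2 fold changes were -0.20 against WT H1.4 (SE 0.092, edgeR adjusted p = 0.0924) and -0.25 against GFP (SE 0.0998, edgeR adjusted p = 0.0681). With the replicate number as a block, both passed in edgeR, at -0.21 (adjusted p = 0.0142) and -0.31 (adjusted p = 0.00287). Over all alternatives its adjusted p ran from 0.000470 to 0.755 against WT H1.4 and from 0.000603 to 0.526 against GFP.

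The estimates of the 3 Shank genes differed. No ratio between them passed after adjustment, a bar that complete separation of the groups could not reach by itself. Shank1 showed the largest log2 fold change of the 9 against WT H1.4, at -0.45 (SE 0.071, edgeR adjusted p = 0.000263). It read 496, 486, 517 and 539 CPM in WT H1.4, 410, 407, 334 and 341 CPM in H1.4 CFT, and 487, 421 and 427 CPM in GFP. Its H1.4 CFT values lay under all 7 others, and its GFP values lay between those of the other groups, except that GFP library 2 was just above the lowest WT H1.4 library. Against GFP the log2 fold change was -0.25 (SE 0.076, edgeR adjusted p = 0.0228), a call lost without H1.4 CFT library 4 (adjusted p = 0.0592) or GFP library 2 (adjusted p = 0.103).

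With TMM, Shank2 gave no difference that passed in either H1.4 CFT comparison. With the pan-neuronal scaling Shank2 rose in both (0.46 against WT H1.4 and 0.43 against GFP, log2), where all genes had medians of 0.45 and 0.46. It read 120, 126, 125 and 126 CPM in WT H1.4, 126, 134, 117 and 126 CPM in H1.4 CFT, and 137, 117 and 127 CPM in GFP, with all groups overlapping. On the log2 scale the difference was 0.021 against WT H1.4 (95% interval -0.082 to 0.12, edgeR adjusted p = 0.773) and -0.016 against GFP (95% interval -0.13 to 0.096, edgeR adjusted p = 0.860). These intervals do not reach the Shank1 estimates (-0.45 and -0.25). Against GFP, however, the 95% interval of Shank1 (-0.42 to -0.089) overlaps that of Shank2.

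Shank3, the gene of Phelan-McDermid syndrome, fell against WT H1.4 with TMM and did not pass against GFP. With the pan-neuronal scaling Shank3 rose against GFP by 0.44 (log2), beside a median of 0.46 for all genes. It read 208, 205, 206 and 206 CPM in WT H1.4, 197, 202, 175 and 181 CPM in H1.4 CFT, and 197, 184 and 182 CPM in GFP. The WT H1.4 libraries were tightly grouped (SD 0.983 CPM) and above all 7 others. The log2 fold change was -0.13 against WT H1.4 (SE 0.046, edgeR adjusted p = 0.0343) and 0.0056 against GFP (95% interval -0.099 to 0.11, edgeR adjusted p = 0.948). The first call was lost without any 1 of the 4 WT H1.4 libraries (edgeR adjusted p = 0.0644, 0.0566, 0.0582 and 0.0634) or H1.4 CFT library 3 or 4 (0.141 and 0.106), and with the stricter filter (0.0613).

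Homer1 fell against both controls. It read 101, 95.3, 103 and 104 CPM in WT H1.4, 91.6, 93.0, 85.3 and 85.9 CPM in H1.4 CFT, and 101, 92.0 and 103 CPM in GFP. All H1.4 CFT values were below the WT H1.4 range, and library 2 was above the lowest GFP library. The log2 fold change was -0.18 against WT H1.4 (SE 0.048, edgeR adjusted p = 0.00575) and -0.15 against GFP (SE 0.052, edgeR adjusted p = 0.0369). The second call was lost without H1.4 CFT library 3 or 4 (edgeR adjusted p = 0.102 and 0.0945), without GFP library 2 or 4 (0.104 and 0.165), with the stricter filter (0.0550) and with only those groups fitted (0.0611). Counts per gene do not separate the long Homer1 forms from the short, activity-induced Homer1a.

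Iqsec2 read 80.3, 81.2, 84.9 and 86.4 CPM in WT H1.4, 78.8, 82.3, 74.6 and 69.3 CPM in H1.4 CFT, and 83.3, 77.1 and 81.9 CPM in GFP. H1.4 CFT library 2 lay inside the WT H1.4 range. The log2 fold change was -0.13 against WT H1.4 (SE 0.053, edgeR adjusted p = 0.0674) and -0.085 against GFP (SE 0.058, edgeR adjusted p = 0.289). Without H1.4 CFT library 2 the first passed (edgeR adjusted p = 0.0207), within a range over the alternatives from 8.67e-05 to 0.992.

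Against GFP, 3 of the 9 fell in H1.4 CFT (Dlg2, Shank1 and Homer1), 0 rose and 6 did not pass with TMM, while 0 fell and 7 rose with the pan-neuronal scaling, where 2.64% of all genes fell and 68.1% rose. Of all genes, 16.2% fell and 13.3% rose with TMM. The median was -0.11 (log2) for the scaffold genes and 0.011 for all genes. At an unadjusted p under 0.05, 5 were lower and 0 higher, beside 39.9% of all genes in either direction. DESeq2 and limma-voom also called 3 lower and 0 higher. CPM did not overlap between the groups for 3 of the 9 (Dlg2, Dlgap1 and Shank1) with H1.4 CFT lower, against 18.5% of all genes. Set against WT H1.4, 6 of the 9 did not overlap with H1.4 CFT lower, again beside 18.5% of all genes, and 0 did with H1.4 CFT higher in either comparison (16.1% and 17% of all genes). These comparisons share the H1.4 CFT libraries and are not independent of each other.

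**Figure D2:**
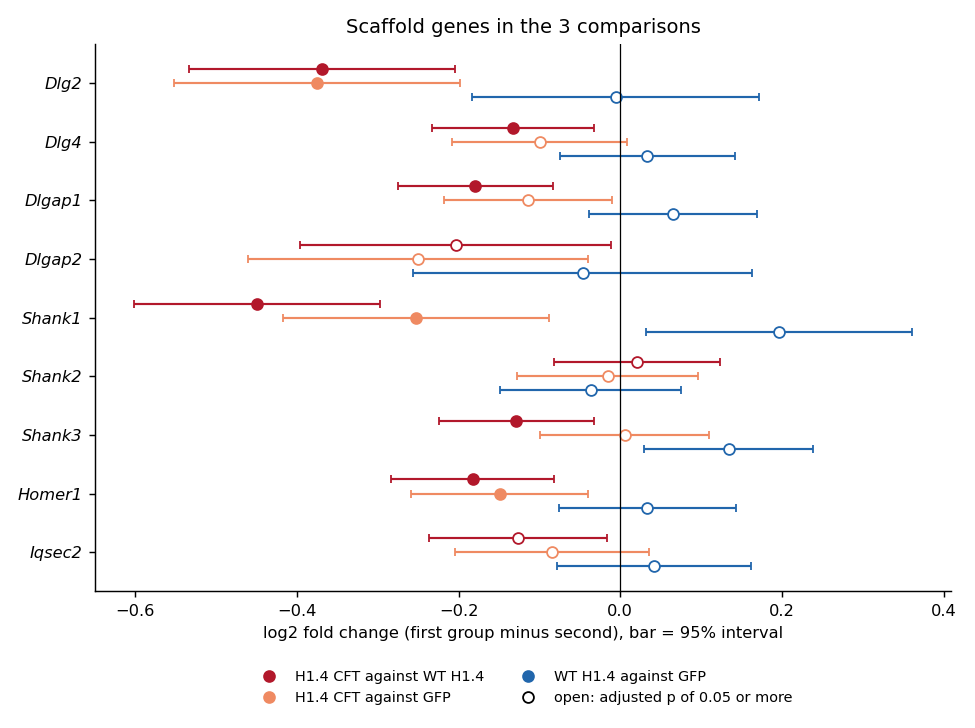
Log2 fold change of each scaffold gene with its 95% interval (x axis) in the 3 comparisons, by edgeR with TMM scaling. Shank1 at -0.45 and Dlg2 at -0.37 against WT H1.4 lie farthest from 0, and the intervals of Shank2 include 0 throughout. Filled points passed the test. With the pan-neuronal scaling 7 of the 9 genes rise in each H1.4 CFT comparison, beside 70.8% (WT H1.4) and 68.1% (GFP) of all genes.

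In WT H1.4 against GFP, edgeR called 0 of the 9 in either direction, beside 0.943% of all genes (0.509% fell, 0.434% rose). DESeq2 and limma-voom also called 0, as did edgeR with the pan-neuronal scaling (0.145% of all genes fell and 0.139% rose). At an unadjusted p under 0.05, met by 11.5% of all genes in either direction, 2 of the 9 were higher. They were Shank1, with a log2 fold change of 0.20 (SE 0.077, edgeR adjusted p = 0.327), and Shank3 with 0.13 (SE 0.050, edgeR adjusted p = 0.266). Shank3 was the 1 gene whose CPM did not overlap, with all WT H1.4 libraries above all GFP libraries, as in 6.29% of all genes, and none was lower without overlap (5.94% of all genes). Shank1 passed with no low-count filter (edgeR adjusted p = 0.00414) and with only these groups fitted (edgeR adjusted p = 0.0448), within a range over its alternatives from 7.50e-12 to 0.701. Mean levels of Shank1 ran in the order WT H1.4, GFP, H1.4 CFT (509, 445 and 373 CPM). The step from WT H1.4 to GFP did not pass the adjusted threshold, which does not show that these groups are alike. For Dlg2, Dlgap1 and Homer1 the step between WT H1.4 and GFP was likewise not past the threshold.

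Libraries numbered 3 and 4 stood apart from those numbered 1 and 2 in all groups, most widely in H1.4 CFT. The chi-square per degree of freedom between libraries of a group was 2.40 and 2.37 within the sets and 4.12 to 5.20 across them in WT H1.4. In H1.4 CFT it was 1.83 and 1.97 within and 9.46 to 10.96 across, and in GFP 2.20 between libraries 3 and 4 and 4.93 and 6.40 from library 2 to them. No label names a batch, and this division follows a resemblance between libraries already known from these data. With only libraries 1 and 2, 2 of the 9 fell against WT H1.4 in edgeR, Dlg2 at -0.21 (adjusted p = 3.43e-06) and Shank1 at -0.26 (adjusted p = 1.75e-08), where 15.7% of all genes fell and 12.3% rose. The other 7 lay between -0.095 and 0.085 and did not pass. With only libraries 3 and 4, 8 of the 9 fell and 0 rose (23.7% and 20% of all genes), and the exception was Shank2 at -0.045 (edgeR adjusted p = 0.475). Among them, Shank1 was at -0.65, Dlg2 at -0.55, Dlgap2 at -0.34, Homer1 at -0.28, Dlgap1 at -0.27, Iqsec2 at -0.26, Dlg4 at -0.24 and Shank3 at -0.22. Libraries 3 and 4 against GFP libraries 3 and 4 gave 7 fallen and 0 risen (21.6% and 17.2% of all genes). For WT H1.4 against GFP the same libraries gave 0 fallen and 2 risen (3.75% and 5.5% of all genes), Shank1 at 0.32 (edgeR adjusted p = 7.50e-12) and Shank3 at 0.17 (edgeR adjusted p = 0.00275). Each fit rests on 2 libraries a group.

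The difference between the sets was fitted as an interaction in edgeR, with 4 residual degrees of freedom. Because the sets were noticed in these same libraries, its calls describe the libraries and are no independent test. The fitted fall was larger in libraries 3 and 4 for 4 of the 9 past the adjusted threshold, beside 7.69% of all genes, while 2.41% showed the opposite difference. The differences were -0.37 for Shank1, -0.32 for Dlg2, -0.24 for Iqsec2 and -0.18 for Dlg4, and the other 5 did not pass. The pan-neuronal markers moved with the sets too, summing to 8876 and 9018 CPM in H1.4 CFT libraries 1 and 2 and to 7650 and 7649 CPM in libraries 3 and 4, and their part in the difference was not tested.

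With H1.4 CFT libraries 1 and 2 set against all other libraries, 3 of the 9 fell against WT H1.4 and 0 rose (12.9% and 9.82% of all genes), and 1 fell against GFP and 0 rose (11.2% and 8.72%). With H1.4 CFT libraries 3 and 4 instead, 8 fell against WT H1.4 and 0 rose (21.9% and 18.4%), and 7 fell against GFP and 0 rose (19.5% and 14.9%). Dlg2 fell in each of these 4 fits. Against GFP, Shank1 did not pass with libraries 1 and 2 (-0.12, edgeR adjusted p = 0.131).

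**Figure D3:**
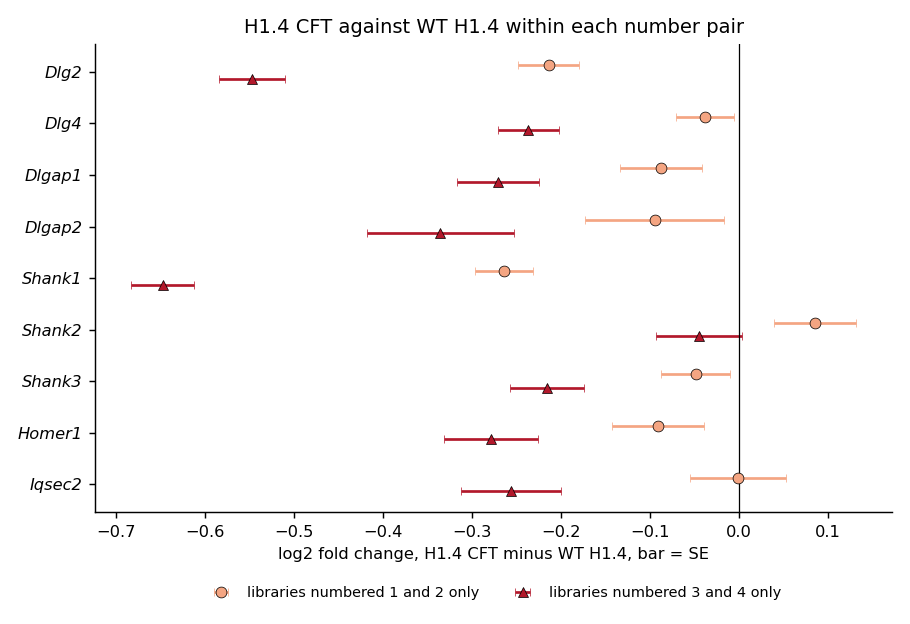
Log2 fold change (H1.4 CFT less WT H1.4) for each scaffold gene, by edgeR with TMM scaling, fitted from libraries numbered 1 and 2 (circles) and from those numbered 3 and 4 (triangles), with bars of 1 SE. Shank1 moves from -0.26 to -0.65 and Dlg2 from -0.21 to -0.55, and Shank2 stays near 0 (0.085 and -0.045).

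Ratios of read counts within a library show how members of a family differ, because library scaling cancels out of them. They compare read counts, not transcripts, so only their change between groups is read. The ratio of Shank1 to Shank2 was 4.13, 3.87, 4.15 and 4.28 in WT H1.4, 3.24, 3.05, 2.85 and 2.71 in H1.4 CFT, and 3.55, 3.59 and 3.36 in GFP. The groups did not overlap and stood in the order WT H1.4, GFP, H1.4 CFT. The mean difference of log2 ratios between H1.4 CFT libraries and WT H1.4 libraries was -0.47 (exact two-sided permutation p = 0.0286, the smallest that 4 against 4 allows). Its value adjusted over 15 ratio tests was 0.0536.

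The ratio of Dlg2 to Dlg4 was 0.800, 0.787, 0.780 and 0.788 in WT H1.4, 0.701, 0.705, 0.629 and 0.634 in H1.4 CFT, and 0.805, 0.796 and 0.831 in GFP. Both controls lay above all H1.4 CFT libraries. The differences were -0.24 against WT H1.4 and -0.28 against GFP (exact two-sided permutation p = 0.0286 each, adjusted 0.0536). Shank1 to Shank3 fell short of the threshold in the same way, with differences of -0.32 and -0.26 (exact two-sided permutation p = 0.0286 each, adjusted 0.0536).

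The ratio of Shank2 to Shank3 gave a log2 difference of 0.15 for H1.4 CFT less WT H1.4 and of -0.17 for WT H1.4 less GFP (exact two-sided permutation p = 0.0286 each, adjusted 0.0536). Between H1.4 CFT and GFP it differed by -0.017 (exact permutation p = 0.800). Shank1 to Shank2 differed by 0.23 between WT H1.4 and GFP (exact permutation p = 0.0286, adjusted 0.0536) and by -0.24 between H1.4 CFT and GFP (exact permutation p = 0.0571, adjusted 0.0952). Dlgap1 to Dlgap2 showed no separation in any comparison, at 0.032 for H1.4 CFT less WT H1.4 (exact permutation p = 0.857). None of the 15 ratio tests passed after adjustment, and 8 of them had the smallest p their group sizes allow. With that p, a ratio could pass the adjustment only if more than 8 of the 15 tests had it. Not passing therefore does not show that the genes of a family moved alike.

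**Figure D4:**
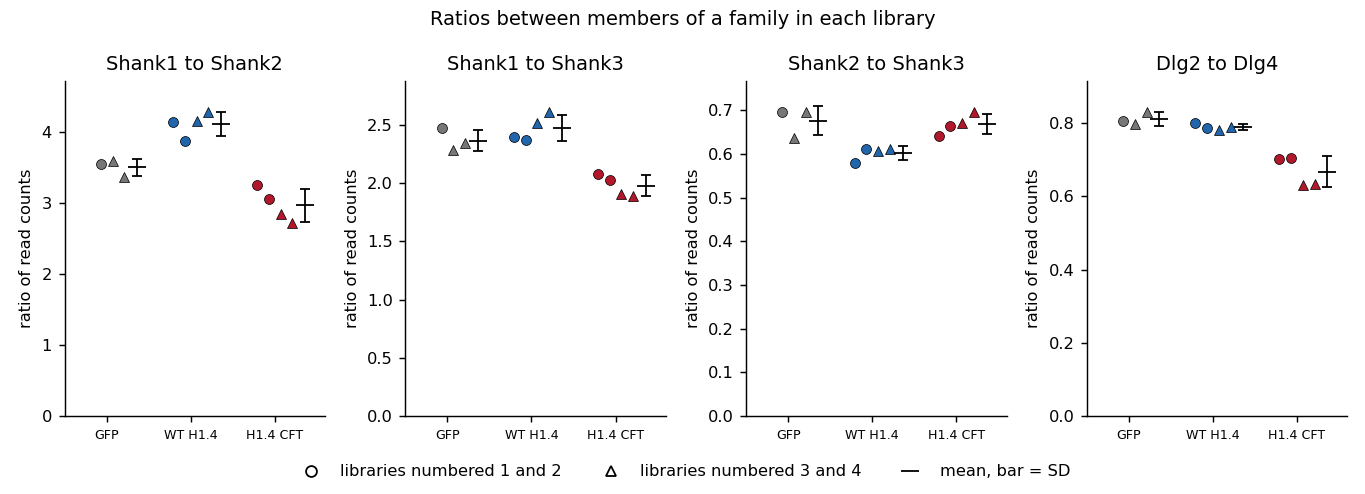
Ratio of read counts of 2 scaffold genes in each library (y axis from 0), by group; circles are libraries numbered 1 and 2, triangles 3 and 4, and the line and bar are the mean and SD. For Shank1 to Shank2 the WT H1.4, GFP and H1.4 CFT libraries occupy separate ranges (3.87 to 4.28, 3.36 to 3.59 and 2.71 to 3.24).

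These lists set the scaffold genes among their partners: 8 family paralogues, 32 postsynaptic partner proteins and 17 receptors and adhesion proteins that the scaffolds anchor. Relative to WT H1.4 libraries and with TMM, 4 paralogues fell, 1 rose and 3 did not pass in H1.4 CFT, with a median of -0.16 (log2). Of all genes, 19.2% fell and 16.7% rose in that comparison, the background for each of the 3 lists. Dlg3 (SAP102), the guanylate kinase of immature synapses, fell by 0.42 on the log2 scale, Dlgap3 by 0.35 and Homer2 by 0.34, while Homer3 rose by 0.21. Of the partners 16 fell, 6 rose and 10 did not pass, with a median of -0.13. They included Lin7a, a PDZ adaptor, at -0.85, Itpr1, the inositol trisphosphate receptor that Homer binds, at -0.50, and Cnksr2 at -0.49.

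Of the anchored receptors and adhesion proteins 12 fell, 1 rose and 4 did not pass, with a median of -0.27 (19.2% of all genes fell and 16.7% rose). Lrrtm2, a synaptic adhesion protein, was at -1.002 (22.2 ± 2.84 CPM in H1.4 CFT and 44.5 ± 3.04 CPM in WT H1.4, SD, n = 4 each), and Cacng2 (stargazin), the AMPA receptor auxiliary subunit, at -0.66. Nlgn1 and Nlgn2, the neuroligins of excitatory and inhibitory synapses, were at -0.43 and -0.28. Gria4, an AMPA receptor subunit, was the 1 that rose, at 0.25 (chosen for mention after its value was seen). Against GFP the counts were 4 fallen and 1 risen of 8 paralogues, 12 and 4 of 32 partners, and 12 and 0 of 17 receptors and adhesion proteins. Of all genes, 16.2% fell and 13.3% rose there. In WT H1.4 against GFP edgeR called 0 in each of the 3 lists (0.943% of all genes). At an unadjusted p under 0.05 they had 0, 7 and 3 genes, beside 11.5% of all genes. Relative to WT H1.4 libraries, the H1.4 CFT excitatory neuron markers had 4 of 8 fallen and the inhibitory markers 5 of 9 risen (median 0.40). The inhibitory markers were lowest in WT H1.4: 5 of 9 fell there against GFP (median -0.48), beside 0.509% of all genes. In H1.4 CFT 2 fell and 1 rose against GFP (median -0.24).

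**Figure D5:**
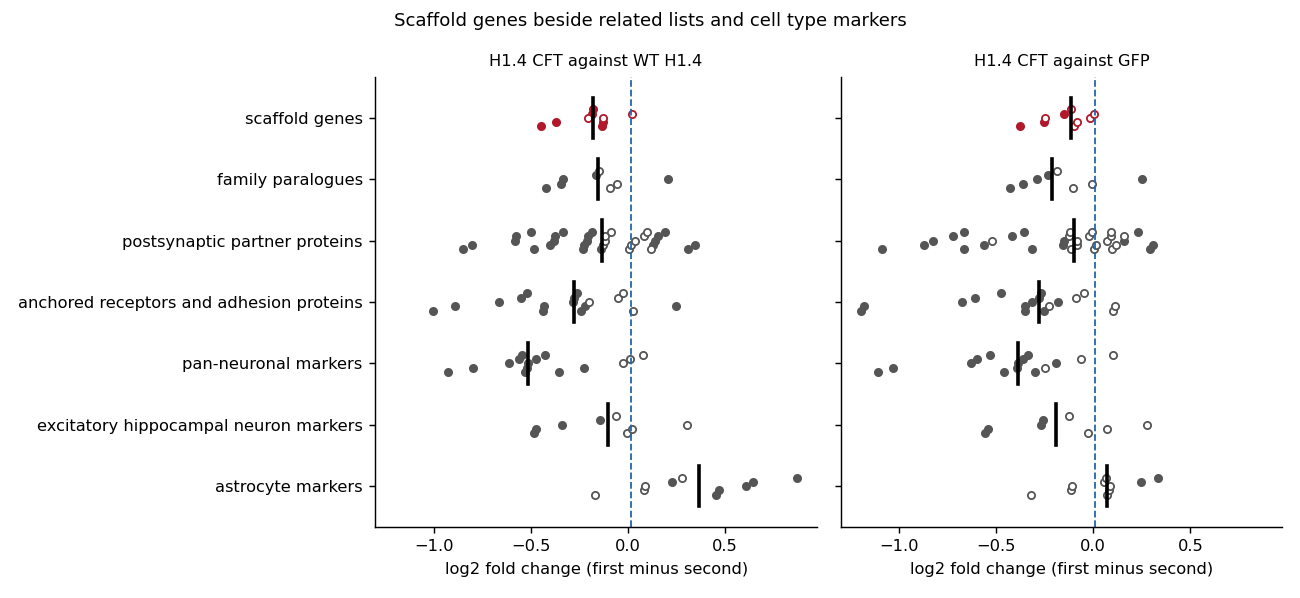
Log2 fold change of each gene of the lists (points; filled where the adjusted p was under 0.05) for the H1.4 CFT libraries, with WT H1.4 as the control on the left and GFP on the right, by edgeR with TMM scaling; black lines are each list's median and the dashed line the median of all genes. Most scaffold, partner and receptor genes that passed lie below 0 and the pan-neuronal markers lie lowest, with a median of -0.51 against WT H1.4; the pan-neuronal scaling would move the median of all genes up to 0.45.

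Over the 11 libraries the log2 CPM of the 9 genes correlated with each other in 36 pairs, as a description over libraries that share depth scaling and groups. The 8 pairs with Shank2 had Pearson r from 0.0935 to 0.469, and the other 28 had r from 0.437 to 0.930, the highest between Dlg2 and Dlg4. Of 10215 genes searched, those most like each scaffold gene were Far2 and Gpr26 for Dlg2 (r = 0.994 each), Dhcr7 and Gprin2 for Dlg4 (0.981 and 0.980), and Trim2 and Igsf3 for Shank1 (0.992 and 0.990). For Shank3 they were Thra and Pygo2 (0.965 and 0.963), for Homer1 Cers6 and Gpr155 (0.968 and 0.967) and for Iqsec2 Zc3h12b and Kif1a (0.961 and 0.959). For Dlgap1 they were Cachd1 and Vezt (0.950 and 0.938), for Dlgap2 Bmpr2 and Ntng1 (0.984 and 0.976) and for Shank2 Anxa11 and Chst3 (0.911 and 0.859). Shank2 therefore had the weakest best match of the 9.

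RefSeq places other genes over 6 of the 9, and none over Dlg4, Homer1 or Iqsec2, by names alone. The strand setting of the counting is not given, so reads of overlapping genes may not be told apart. Acr, a proacrosin gene that overlaps Shank3, rose from 0.988 CPM in WT H1.4 to 3.86 CPM in H1.4 CFT (log2 fold change 1.95, edgeR adjusted p = 4.94e-06), against 1.34 CPM in GFP. LOC108351527, a long non-coding RNA also over Shank3, rose from 0.260 to 1.23 CPM (log2 fold change 2.25, edgeR adjusted p = 0.00185). LOC120097342, a long non-coding RNA over Dlg2, fell with Dlg2, from 11.8 to 7.92 CPM (log2 fold change -0.58, edgeR adjusted p = 0.00568). Whether reads of one were counted for the other was not tested.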

How the data were processed

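RNA was measured in 11 libraries of rat hippocampal neurons (4 WT H1.4, 4 H1.4 CFT, 3 GFP). Per the submitters' processing notes, the authors used STAR 2.7.2b, HTSeq 0.10.0 and the mRatBN7.2 build. The deposited files hold whole, unnormalized counts by gene symbol. The annotation release and strand setting are not given in the sources used here. Genes took 45.9% to 46.9% of the entries counted, and the counter's summary entries were left out. Of these, entries that matched no gene feature took 45.2% to 46.0%, and entries that matched more than 1 gene 0.396% to 0.43%.

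Counts were fitted in R 4.3.3 with edgeR 4.0.16: TMM scaling, filterByExpr by group (minimum count 10, minimum total 15), group as the only term, a robust quasi-likelihood test over all 11 libraries and Benjamini-Hochberg adjustment over the 17294 genes tested. The fit had 8 residual degrees of freedom and a biological coefficient of variation of 7.02%. Standard errors are the log2 fold change over the root of F. DESeq2 1.42.0 and limma 3.58.1 served as alternatives, and the procedure was tested on simulated data. Log2 ratios of 2 genes had an exact two-sided permutation test each.

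The numbers on the libraries were checked for pairing. Residuals of same-numbered libraries correlated at 0.149, 0.174, 0.192 and 0.142 for H1.4 CFT with WT H1.4 and at 0.255, 0.124 and 0.163 between H1.4 CFT and GFP, all above 0.1, the bar for printing the blocked values. Between WT H1.4 and GFP they were 0.206, 0.113 and 0.0927. Differently numbered libraries within the sets 1 and 2 or 3 and 4 correlated as much (0.189 for H1.4 CFT 1 with WT H1.4 2, 0.263 for H1.4 CFT 1 with GFP 2, 0.224 for WT H1.4 1 with GFP 2), and every pair across the sets was negative. The groups therefore share these sets, and pairing by single number is not shown. The replicate block changed the call of Dlgap2 in both H1.4 CFT comparisons.

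The scaffold genes, the lists and the marker sets were chosen with earlier results of these data known. Named genes are all 9 scaffold genes, up to 4 of each context list past the threshold against WT H1.4 by smallest p, and the 2 best matches of each scaffold gene by Pearson r among genes with a mean of at least 10 CPM. Not every gene named by this rule is reported here. Promoter letters come from RefSeq (GRCr8) and gene overlaps from its names.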

Additional observations from a re-analysis of the deposited data

Results flagged for a closer look

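Dlgap1 stood at 134.81 CPM in H1.4 CFT library 2, apart from the other 3 libraries of its group at 124.054 to 124.978 CPM, with a gap of 0.914 of the group's range where 0.829 is the critical value for 4 libraries. It was 1 of 18 groups of 4 examined, and chance flags about 1 in 20.

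The change of H1.4 CFT against WT H1.4 differed between libraries 3 and 4 and libraries 1 and 2, by the interaction term in edgeR, for 4 genes. The differences on the log2 scale were -0.3183 for Dlg2, -0.183237 for Dlg4, -0.367782 for Shank1 and -0.239733 for Iqsec2. The sets were noticed in these same libraries, so this is a description and no independent test, and no label ties the numbers to a batch.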

How the results depend on the processing

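Each scaffold gene was refitted under 21 other settings and 3 more chosen after seeing the data, where the groups allowed. Outside the pan-neuronal scaling, Dlg2 in both H1.4 CFT comparisons and Shank1 against WT H1.4 kept their call in every fit run, including all 11 fits without 1 library. Leaving out 1 library gave 4 to 7 scaffold genes fallen against WT H1.4 and 1 to 5 against GFP (5 without H1.4 CFT library 2, 1 without H1.4 CFT library 4, 1 without GFP library 2).

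With the pan-neuronal scaling 0 fell and 7 rose in each H1.4 CFT comparison. The median log2 fold change of all genes was then 0.45 against WT H1.4 and 0.46 against GFP. Against WT H1.4 the log2 fold changes became 0.054 for Dlg2, 0.30 for Dlg4, 0.26 for Dlgap1, 0.22 for Dlgap2, 0.46 for Shank2, 0.30 for Shank3, 0.25 for Homer1 and 0.31 for Iqsec2, while Shank1 was at -0.021. Against GFP they became 0.057 for Dlg2, 0.34 for Dlg4, 0.33 for Dlgap1, 0.19 for Dlgap2, 0.18 for Shank1, 0.43 for Shank2, 0.44 for Shank3, 0.29 for Homer1 and 0.36 for Iqsec2. That scaling called 12731 genes against WT H1.4 (6217 with TMM), 12237 against GFP (5098 with TMM) and 49 in WT H1.4 against GFP. The scaling by its construction holds the neuronal markers level.

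Scaffold genes that fell numbered 2 with libraries 1 and 2 only and 3 with H1.4 CFT libraries 1 and 2 (3938 genes called) against WT H1.4. Against GFP they numbered 7 with libraries 3 and 4 only, 1 with H1.4 CFT libraries 1 and 2 and 7 with H1.4 CFT libraries 3 and 4. In WT H1.4 against GFP, 163 genes were called, beside 277 with DESeq2, 462 with no filter, 248 with the replicate block, 348 with only the groups compared, 1596 with libraries 3 and 4 only, and 44 to 306 without 1 library. Scaffold genes that rose there numbered 1 with no filter, 1 with only the groups compared and 2 with libraries 3 and 4. The replicate block changed no call of a scaffold gene other than Dlgap2. The cause of these changes was not tested.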
